A study of Mus musculus with 7 samples.

Results

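The 9 genes described here encode proteins that bind, build or break down glycogen: Stbd1, Gys1, Gyg, Gbe1, Pygb, Pygm, Pygl, Gaa and Epm2a. They are 9 of the 23337 gene symbols in a count table of poly(A)-selected RNA. The RNA came from the left ventricle of mouse embryos dissected at E12.5 (embryonic day). Stbd1 was chosen by its fall in the mutant against control comparison of these same libraries, so its values in that comparison are a description and carry no test. The 8 other genes were chosen by their place in glycogen metabolism, and the question asked of them was whether the fall of Stbd1 is shared. All 9 passed the filter on low counts and were among the 14691 genes tested.

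All 7 samples carried the allele Gt(ROSA)26Sortm1(cre/ERT2)Tyj, together with Tbx5flox/flox in the 2 labelled mutant and with Tbx5+/+ in the 5 controls. The shared allele encodes CreERT2, a tamoxifen-activated recombinase expressed from the broadly active Rosa26 locus and so not restricted to heart muscle. Mothers of both groups received tamoxifen by intraperitoneal injection at E11.5. Tbx5 encodes a T-box transcription factor needed for heart formation, and only the floxed alleles can be recombined. Counts of Tbx5 over the whole gene do not check the deletion: they gave 64.2 to 98.3 CPM (counts scaled to the library total) in the controls and 93.9 and 114 CPM in the libraries labelled mutant. Genotypes therefore rest on the labels. No litter, sex or batch is named in them, and nothing says that embryos came from separate litters, so adjusted p-values measure only the spread between these samples.

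Glycogen is a branched polymer of glucose that the embryonic heart stores in large amounts. Glycogenin primes each particle, glycogen synthase lengthens the chains and the branching enzyme adds branches, while phosphorylase releases glucose units in the cytosol. A separate route takes glycogen into the lysosome, where acid alpha-glucosidase digests it. STBD1 binds glycogen through a starch-binding domain, sits on internal membranes and also binds the autophagy protein GABARAPL1, and is regarded as a receptor for this lysosomal route.

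Because the study concerns a T-box factor, the promoter of Stbd1 is shown with the letters AGGTGT, the core that T-box proteins recognise, in capitals. The sequence is that of RefSeq for GRCm38.p6, plus strand, chr5:92602801-92603040, 240 bases that end where the GENCODE gene begins.

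Stbd1: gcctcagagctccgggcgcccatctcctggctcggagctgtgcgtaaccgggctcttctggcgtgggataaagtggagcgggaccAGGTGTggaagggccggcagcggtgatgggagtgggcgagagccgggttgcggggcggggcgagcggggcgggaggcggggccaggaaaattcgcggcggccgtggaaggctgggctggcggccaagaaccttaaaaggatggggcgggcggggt

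The 250 bases before the RefSeq start of each of the 9 genes were searched on both strands. AGGTGT was found once each in Stbd1, Gyg, Gbe1 and Gaa, 4 of the 9, and in 11.8% of all 32851 promoters of the same length. The longer form AGGTGTGA, which contains AGGTGT, was in none of the 9 and in 1.12% of all promoters. The 3 other matches are shown with 12 bases on each side, on the strand of the gene, so that the capitals in Gaa are the reverse complement.

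Gyg, chr3:20155188-20155217, minus strand: gcagtccccaacAGGTGTcccctgggcaca
Gbe1, chr16:70313847-70313876, plus strand: agaaatgagagcAGGTGTttgaggagaggt
Gaa, chr11:119267898-119267927, plus strand: gctgccattccaACACCTgcgctcactgtc

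The match lay 165 bases before the RefSeq start in Stbd1, 89 in Gyg, 90 in Gbe1 and 53 in Gaa. In Gyg 201 of the 250 bases searched, and in Gaa 76, fall inside the longer GENCODE gene. The matches of Gyg and Gaa lie in that part, inside the gene, and those of Stbd1 and Gbe1 lie before the GENCODE gene. Of the genes without a match, all 250 bases in Pygl, 61 in Pygb, 41 in Epm2a and 9 in Pygm also fall inside it. The series holds no binding data, and a match describes letters only.

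The controls held 20385656 to 24440806 counts each, and mutant replicates 1 and 2 held 20268208 and 22680280. At this depth the members had between 69 counts (Epm2a, lowest library) and 33967 counts (Gyg, highest library), where counting error alone is 12% of the lowest Epm2a count, 3.02% of the lowest Stbd1 count and 0.746% of the lowest Gyg count. The heart muscle markers Tnnt2, Actn2 and Myl2, which check the labelled tissue, were abundant in every library. Xist was at 0.689 and 1.09 CPM in control replicates 1 and 3 and at 311 to 509 CPM in the other libraries, so the controls mix libraries with and without Xist and the mutants do not.

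Levels of the 9 genes were compared with each other only per length, as CPM per kilobase of GENCODE exon. In the controls Gyg was highest at 532 ± 43.7 (SD, n = 5) and Epm2a lowest at 1.15 ± 0.0707. Between them came Pygb at 116 ± 9.54, Pygm at 80.9 ± 9.93, Stbd1 at 46.2 ± 3.07, Gys1 at 44.6 ± 1.44, Gaa at 27.4 ± 3.80, Gbe1 at 12.8 ± 0.587 and Pygl at 8.51 ± 0.629. Stbd1 and Gys1 overlapped in range over the control libraries and no other neighbours in this order did. In the libraries labelled mutant the order was the same except for Stbd1, which took sixth place at 24.4 and 23.6 CPM per kilobase in mutant replicates 1 and 2, below Gys1 at 47.3 and Gaa at 34.9.

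**Figure D1:**
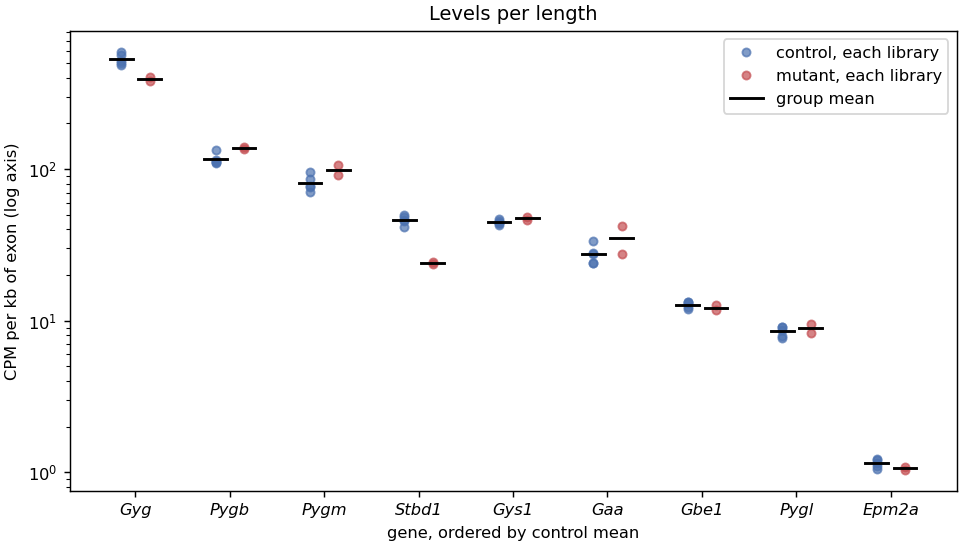
Level of each of the 9 glycogen genes in CPM per kilobase of exon (vertical log axis) for 5 control and 2 mutant libraries (points), with group means as short horizontal lines. Gyg stands above all others in both groups, and Stbd1 moves from the level of Gys1 in the controls, 46.2 against 44.6, to 24.4 and 23.6 in the mutants.

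Stbd1 lies on chromosome 5 at 92603041 to 92606579 of GRCm38 (the mm10 build), has 2221 exon bases and overlaps no other annotated exon. None of its 50-base windows occurs in a transcript of another gene. Stbd1 was at 92.7, 101, 111, 102 and 107 CPM in control replicates 1 to 5 and at 54.3 and 52.3 CPM in mutant replicates 1 and 2. The libraries labelled mutant stood close together, at 51.9% of the control mean, and the lowest control was well above both. On the log2 scale the fold change, mutant against control, was -0.95 (standard error, SE, 0.09; 95% interval -1.15 to -0.74). In the authors' deposited table Stbd1 has a log2 fold change of -0.95 and a false discovery rate of 5.9e-13, and it is the 1 member of the 9 listed there, where 2.86% of the symbols of the count table are listed. Across 15 alternative fits its log2 fold change lay between -0.98 and -0.86. The deposited values and these fits use the same libraries by which Stbd1 was chosen, so they describe its fall and are no separate support.

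**Figure D2:**
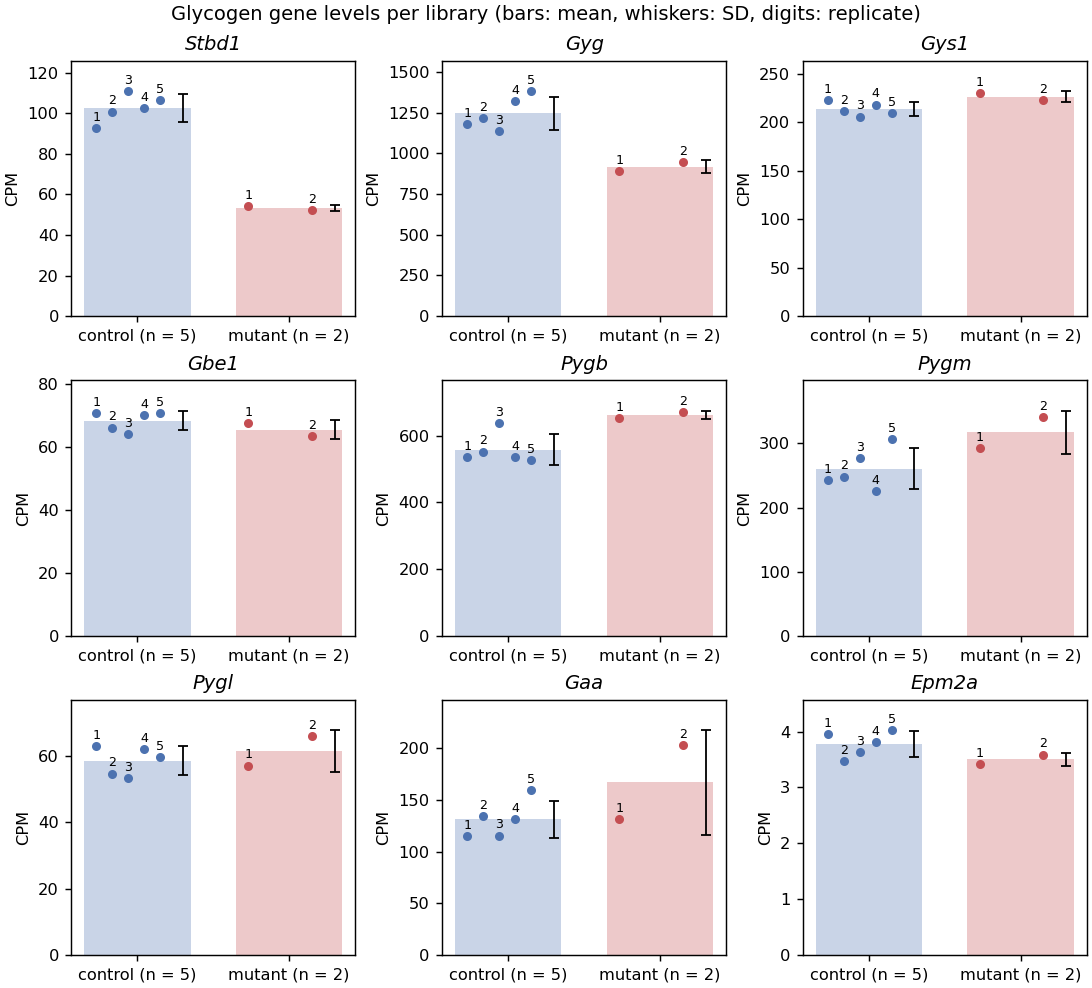
CPM of each of the 9 genes in each library (points, with the replicate number), with group means as bars and SD as whiskers, for 5 controls and 2 mutants. In Stbd1 and Gyg both mutant libraries sit below every control, in Pygb both sit above every control, and in the other 6 genes the groups overlap.

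Among the genes that start and extend glycogen, Gyg came nearest to the fall of Stbd1. Gyg, on chromosome 3 at 20122084 to 20155317, encodes glycogenin, the protein that primes each glycogen particle by adding glucose to itself. It was at 1179, 1215, 1136, 1323 and 1382 CPM in control replicates 1 to 5 and at 890.3 and 946 CPM in mutant replicates 1 and 2. Both libraries labelled mutant were below all controls. This placed Gyg at 73.6% of its control mean, with a log2 fold change of -0.44 (SE 0.10, 95% interval -0.67 to -0.22). The change did not pass the edgeR quasi-likelihood test, with a Benjamini-Hochberg adjusted p of 0.0644 over all genes tested. DESeq2 did call Gyg lower, at an adjusted p of 0.00149 and a log2 fold change of -0.43. Over the other 14 alternative fits it was not called. The authors' deposited table does not list it.

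Gys1, on chromosome 7 at 45434844 to 45456619, encodes the glycogen synthase of muscle and other tissues outside the liver. It was at 223, 212, 206, 218 and 209.5 CPM in control replicates 1 to 5 and at 230.5 and 223 CPM in mutant replicates 1 and 2. The groups overlapped, and the log2 fold change was 0.08 (SE 0.08, 95% interval -0.09 to 0.25, edgeR adjusted p 0.609). The exons of Gys1 share 6.47% of their bases with Ruvbl2 on the opposite strand, and 5.79% of its 50-base windows occur in other transcripts, so part of its counts is uncertain.

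Gbe1, the branching enzyme, lies on chromosome 16 at 70313949 to 70569716. It was at 70.8, 66.1, 63.9, 70.1 and 70.8 CPM in control replicates 1 to 5 and at 67.5 and 63.3 CPM in mutant replicates 1 and 2. Mutant replicate 1 lay inside the control range and mutant replicate 2 just under it. The log2 fold change was -0.06 (SE 0.08, 95% interval -0.24 to 0.12, edgeR adjusted p 0.727).

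The balance of these genes was also taken within each library. Gyg per kilobase was 11.9 ± 1.04 times Gys1 in the controls (SD, n = 5) and 8.29 ± 0.557 times in the mutants (SD, n = 2). Stbd1 per kilobase was 1.04 ± 0.0995 times Gys1 in the controls and 0.508 and 0.507 times in mutant replicates 1 and 2. Stbd1 was also lower against Gyg, at 0.0814 to 0.103 of the Gyg level in the controls and 0.0643 and 0.0584 in the mutants. Gbe1 was at 0.278 to 0.302 of the Gys1 level in the controls and at 0.262 and 0.255 in mutant replicates 1 and 2, below all controls. These ratios restate the contrast between the same libraries and were not tested.

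The 3 phosphorylases cut glucose units from the outer chains of glycogen: Pygb is the brain form, Pygm the muscle form and Pygl the liver form. All 3 were expressed. Per kilobase, Pygb made up 56.5% ± 3.01 of the summed phosphorylase level in the controls (SD, n = 5), Pygm 39.3% ± 3.07 and Pygl 4.17% ± 0.541. The shares in the libraries labelled mutant fell within the control ranges: Pygb had 57.8% and 54.7%, Pygm 38.7% and 41.5%, and Pygl 3.52% and 3.75% in mutant replicates 1 and 2. Control replicate 5 had the lowest Pygb share, 51.3%, and the highest Pygm share, 44.7%. Only 13 of the 50-base windows of Pygb and Pygm are common to both, which is 0.273% and 0.405% of their windows, so reads can hardly be exchanged between them.

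Pygb, on chromosome 2 at 150786735 to 150831758, was at 536, 552, 638, 536 and 527 CPM in control replicates 1 to 5 and at 654 and 672 CPM in mutant replicates 1 and 2. Both libraries labelled mutant were above all controls, with control replicate 3 close to them. The log2 fold change was 0.25 (SE 0.10, 95% interval 0.03 to 0.46), and the edgeR adjusted p was 0.217.

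Pygm, on chromosome 19 at 6384399 to 6398459, was at 243, 248, 277, 226 and 307 CPM in control replicates 1 to 5 and at 293 and 341 CPM in mutant replicates 1 and 2. Control replicate 5 lay between the 2 mutant libraries. The log2 fold change was 0.29 (SE 0.12, 95% interval 0.02 to 0.55, edgeR adjusted p 0.258). It was 0.18 without mutant replicate 2, also not called.

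Pygl, on chromosome 12 at 70190811 to 70231488, was the weakest of the 3, at 63.0, 54.8, 53.5, 62.3 and 59.7 CPM in control replicates 1 to 5 and at 57.1 and 66.1 CPM in mutant replicates 1 and 2. The libraries labelled mutant lay on either side of the control median. The log2 fold change was 0.07 (SE 0.10, 95% interval -0.14 to 0.29, edgeR adjusted p 0.746), and its direction turned to -0.03 without mutant replicate 2.

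Gaa and Epm2a serve other ends of glycogen metabolism. Gaa, on chromosome 11 at 119267887 to 119285454, encodes the acid alpha-glucosidase that digests glycogen in the lysosome, the compartment to which STBD1 is thought to direct it. It was at 115, 134, 116, 132 and 159.6 CPM in control replicates 1 to 5 and at 131 and 203 CPM in mutant replicates 1 and 2. Mutant replicate 1 lay at the centre of the controls and mutant replicate 2 above all of them, so Gaa had the widest spread of the 9 genes in the mutants. The log2 fold change was 0.35 (SE 0.17, 95% interval -0.02 to 0.72, edgeR adjusted p 0.312). Without mutant replicate 1 the log2 fold change was 0.63 and without mutant replicate 2 it was 0.01, neither of them called.

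Epm2a, on chromosome 10 at 11343404 to 11459644, encodes laforin, a phosphatase that removes phosphate from glycogen. It was the least abundant member, at 3.96, 3.47, 3.63, 3.81 and 4.03 CPM in control replicates 1 to 5 and at 3.42 and 3.59 CPM in mutant replicates 1 and 2. The groups overlapped, at a log2 fold change of -0.11 (SE 0.17, 95% interval -0.49 to 0.27, edgeR adjusted p 0.785). The interval is the widest of the 9, and a change of that size could not be told from the spread at these counts.

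**Figure D3:**
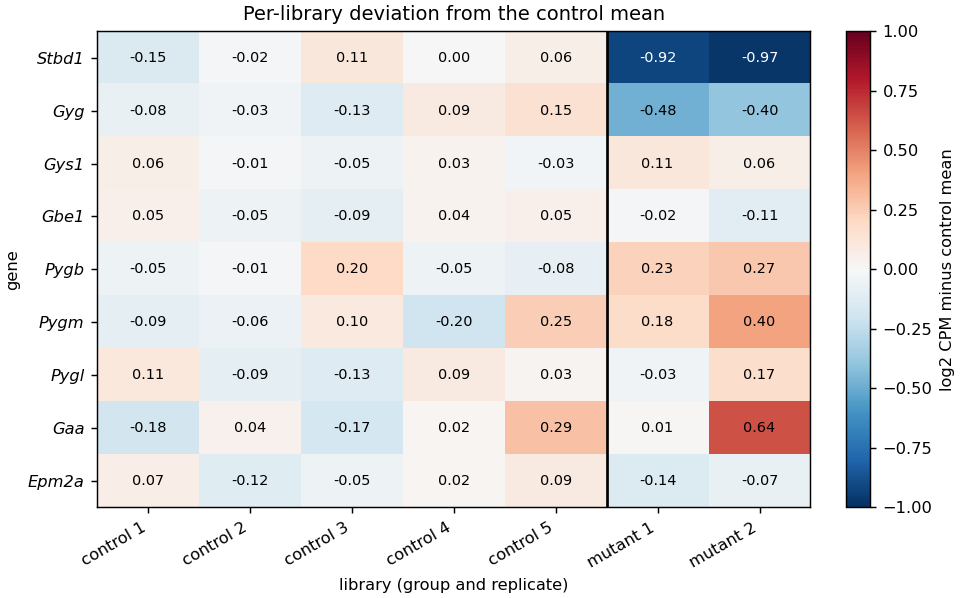
Log2 CPM of each gene in each library after subtraction of the mean of the 5 controls (colour and printed value); the vertical line separates controls from mutants. Stbd1 is at -0.92 and -0.97 in the mutants, Gyg at -0.48 and -0.40, and Gaa at 0.64 in mutant replicate 2 against 0.01 in mutant replicate 1.

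The fall of Stbd1 was thus not shared at the test's threshold by any of the 8 other genes. Of the 9, Stbd1 was called lower and none was called higher, where 1.36% of all genes tested were called, 0.899% lower and 0.463% higher. Since Stbd1 was chosen from those calls, nothing is read from its own count. None of the 8 others was called by edgeR, 5 of them had a positive and 3 a negative log2 fold change, and their median was 0.08 against -0.0080 over all genes tested. By limma-voom none of the 8 was called, and by DESeq2 only Gyg. At an unadjusted threshold of 0.05 in the edgeR test, Pygb and Pygm were higher and Gyg lower, 3 of the 8, where 17.6% of all genes tested pass that threshold. Both libraries labelled mutant were below all controls for 1 of the 8, Gyg, and above all controls for 1, Pygb, where 10.4% and 9.73% of all genes tested had these arrangements.

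The intervals limit how large a fall the 8 could have had. The lowest bound of a 95% interval was that of Gyg at -0.67. For Gys1, Gbe1, Pygb, Pygm, Pygl and Gaa the lower bound was -0.24 or higher, and for Epm2a it was -0.49. The intervals are per gene and are not adjusted for the number of genes. A p that misses the threshold does not show that these genes were unchanged.

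The wider pathway was read from 8 lists that hold 53 genes with the members, of which 51 were tested. Stbd1 was called lower and none of the other 50 was called in either direction by edgeR or limma-voom, while DESeq2 called 5 of the 51. Of the 51, 27 were above and 24 below 0 on the log2 scale, and their median was 0.07. Both libraries labelled mutant were below all controls in 9 of the 51, Stbd1 included, and above all controls in 7, where 10.4% and 9.73% of all genes tested had these arrangements. Without the members, 42 genes were tested and 8 passed an unadjusted threshold of 0.05, a share near the 17.6% of all genes tested. By direction, 7 were higher and 1 lower, against 1188 higher and 1399 lower among all 14691 genes tested. Gys2, the liver glycogen synthase, and G6pc, the liver glucose 6-phosphatase, were not tested. Gys2 had 0 counts in all but control replicate 3, and G6pc had 0 in every library.

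**Figure D4:**
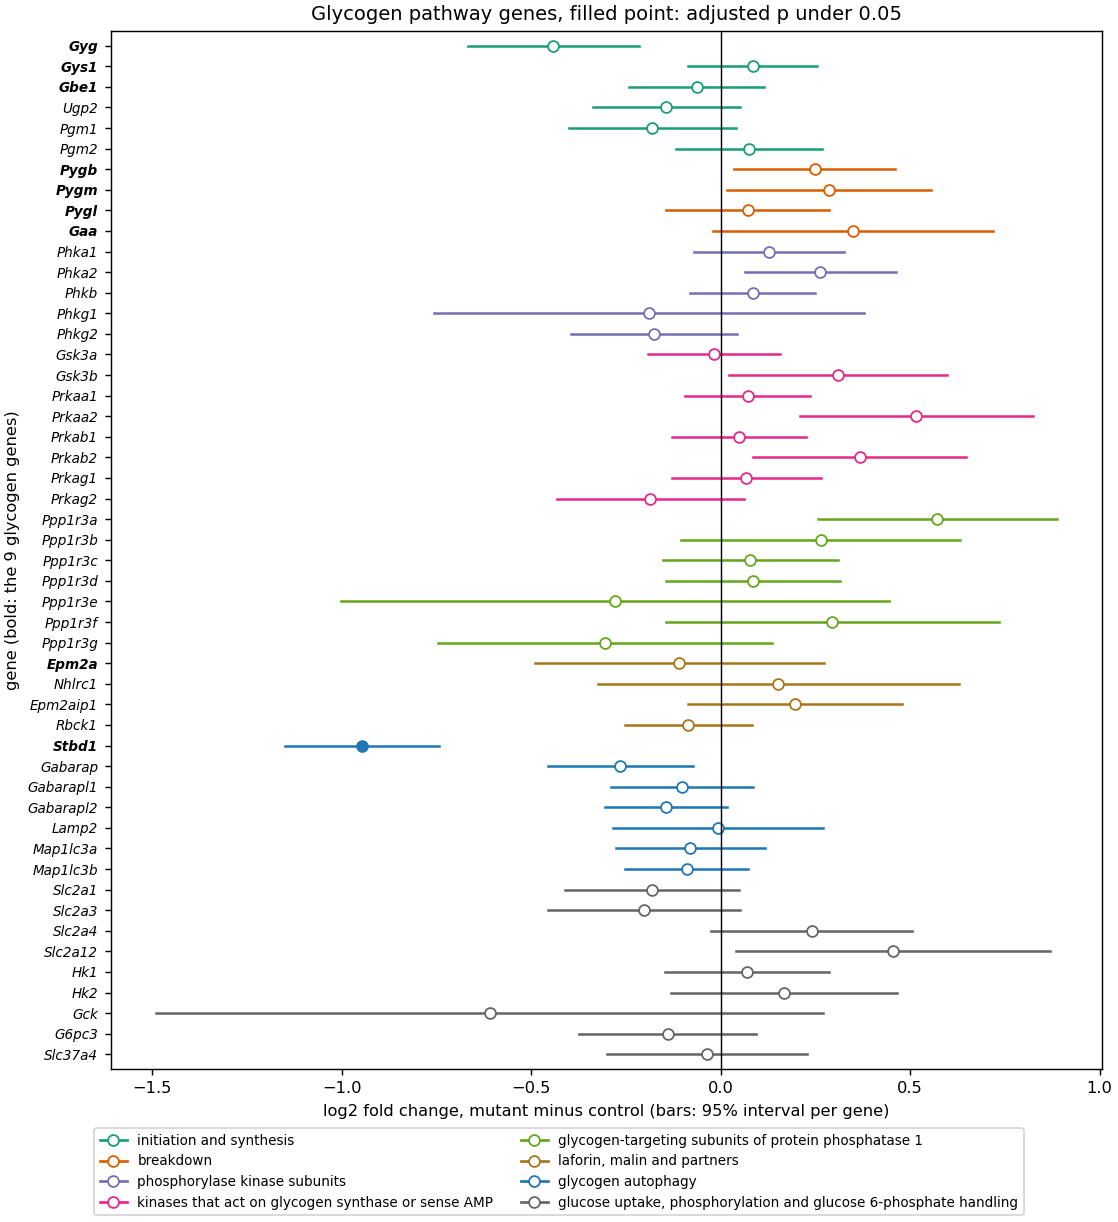
Log2 fold change of the mutants against the controls for 50 of the 51 tested pathway genes (points, horizontal axis) with the 95% interval of each gene (bars), coloured by list, with the 9 members in bold. Stbd1 is the only filled point, that is, the only gene called, and it was chosen by its fall in this comparison; the intervals of Gyg, Pygb and Pygm leave out 0 among the other members.

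Of the breakdown genes, the members Pygb, Pygm, Pygl and Gaa all had a positive log2 fold change, from 0.07 to 0.35, and none was called. The summed level of heart muscle markers, given below, was also above all controls in both libraries labelled mutant, and its part in these values was not tested.

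Of the 6 tested genes of initiation and synthesis none was called, and 4 had a negative log2 fold change. In 3 of the 6, Gyg, Ugp2 and Pgm1, both libraries labelled mutant were below all controls, where 10.4% of all genes tested had this arrangement. Ugp2, which makes the UDP-glucose used by the synthase, was at -0.14 (95% interval -0.34 to 0.05), and Pgm2, a phosphoglucomutase, at 0.08 (-0.12 to 0.27). The symbols Pgm1 and Pgm2 are those of the deposited counts, whose gene order places Pgm1 among genes of chromosome 5 and Pgm2 among those of chromosome 4. GENCODE places Pgm1 on chromosome 4 and Pgm2 on chromosome 5. The gene named Pgm2 here is thus probably the Pgm1 of GENCODE, and the reverse. Gyg was the only one of the 6 whose interval left out 0.

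None of the 5 phosphorylase kinase subunits, which switch phosphorylase on, was called. Phka2, an alpha subunit, had a log2 fold change of 0.26 (95% interval 0.06 to 0.46, edgeR adjusted p 0.171) and Phkb, the beta subunit, one of 0.08 (-0.08 to 0.25). Of 8 tested kinase genes that act on glycogen synthase or belong to the AMP-activated kinase, none was called and 6 had a positive value. Prkaa2, a catalytic subunit of that kinase, was at 0.52 (95% interval 0.21 to 0.82, edgeR adjusted p 0.0973) and Prkab2, a subunit that binds glycogen, at 0.37 (0.09 to 0.65, adjusted p 0.176). Prkab2 was at 43.1 and 63.4 CPM in mutant replicates 1 and 2, and its log2 fold change was 0.07 without mutant replicate 2 and 0.62 (called, edgeR adjusted p 0.0257) without mutant replicate 1. Prkag1 was at 0.07 and Gsk3a at -0.02. Genes on the opposite strand share 43.7% of the exon bases of Prkag1 and 28.3% of those of Gsk3a, so part of their counts is uncertain.

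Of the 7 subunits that bring protein phosphatase 1 to glycogen, none was called. Ppp1r3a, the striated muscle form, went from 18.7 CPM on average in the controls to 22.1 and 33.3 CPM in mutant replicates 1 and 2, with a log2 fold change of 0.57 (95% interval 0.26 to 0.89, edgeR adjusted p 0.0803). Without mutant replicate 2 the value was 0.25, and without mutant replicate 1 it was 0.84, called at an edgeR adjusted p of 0.0207. Ppp1r3c and Ppp1r3b, the most abundant of the 7 per kilobase over all libraries, were at 0.08 and 0.26 and were not called. Without mutant replicate 2 they were at 0.0071 and -0.06. The authors' deposited table lists Ppp1r3a at 0.57 with a false discovery rate of 0.0106 and Prkaa2 at 0.51 with 0.0158. Ppp1r3a and Prkaa2 were also among the genes called higher by DESeq2 here, at adjusted p of 0.0151 and 0.0199.

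In the list of glycogen autophagy the 6 genes other than Stbd1 lay below 0 on the log2 scale, as did 7552 of all 14691 genes tested, and none of the 6 was called. Both libraries labelled mutant were below all controls in 3 of the 6, Gabarap, Gabarapl2 and Map1lc3b, where 10.4% of all genes tested had this arrangement. Gabarap, a ubiquitin-like protein of autophagosome membranes, was at -0.26 (95% interval -0.46 to -0.07, edgeR adjusted p 0.153). Gabarapl1, the family member that binds STBD1, was at -0.10 (-0.29 to 0.09), and Map1lc3a, another family member, was at -0.08. A gene on the opposite strand shares 28.3% of the exon bases of Gabarapl1, so part of its counts is uncertain. Of the 4 genes of laforin, malin and their partners none was called, with Rbck1 at -0.09 and Epm2aip1 at 0.20, the latter at -0.08 without mutant replicate 2. Of 9 tested genes of glucose uptake and phosphorylation none was called, with the transporter Slc2a1 at -0.18 and the hexokinase Hk1 at 0.07. Slc2a1 was at -0.0079 without mutant replicate 1 and at -0.37 without mutant replicate 2.

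Markers of several cell types differed between the groups in these bulk samples, in which fewer cells of a type and less RNA per cell cannot be told apart. The summed level of 9 heart muscle markers was 27792 to 31379 CPM in the controls and 35186 and 39528 CPM in mutant replicates 1 and 2, with 8 of 9 positive and none called. The sum of 4 ventricular markers was 10682 to 14126 CPM against 9822 and 9329 CPM, with 2 of 4 positive and none called. Myl2 was at 7433 to 10784 CPM against 6263 and 5726 CPM, below all controls, and Myl3 at 2392 to 3137 CPM against 3367 and 3394 CPM, above all controls. Cushion mesenchyme and fibroblast markers summed to 2495 to 4307 CPM in the controls and to 1507 and 1513 CPM in the mutants, with 6 of 8 called lower. Macrophage markers summed to 154 to 215 CPM against 136 and 96.0 CPM, with 3 of 7 tested called lower. Atrial markers summed to 3097 to 5172 CPM in the controls and to 3420 and 3152 CPM in the mutants, within the control range. Of the 7, 5 were called lower and 1 was positive. Myl4 among them was at 2315 to 3529 CPM against 2895 and 2679 CPM. Epicardial markers summed to 309 to 441 CPM against 310 and 231 CPM, with 1 of 6 called lower. No endothelial or red blood cell marker was called. The part of these differences in the values of Stbd1, Gyg and the phosphorylases was not tested. Of the 7 liver and skeletal muscle markers, Myf5 had 0 counts and Alb, Afp, Apoa1, Myod1 and Myog stayed under 5 CPM in every library. The seventh, Ckm, was at 117 to 274 CPM in the controls and at 228 and 256 CPM in the mutants.

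Genes were ranked by how near their pattern over the 7 libraries was to that of Stbd1. The measure was the root mean square difference of log2 CPM after subtraction of the control mean. The 10427 candidates were tested genes with a mean of at least 5 CPM, leaving out symbols of predicted or unnamed genes. The 5 nearest were H2-T9 (0.09), H2-T22 (0.10), Tcap (0.11), Krt19 (0.12) and Fitm1 (0.13). H2-T9 and H2-T22 are near-identical histocompatibility genes whose counts cannot be told apart with confidence. Tcap encodes telethonin of the sarcomere, Krt19 a keratin that is also one of the epicardial markers, and Fitm1 a protein of lipid droplet formation. The distance was 0.29 for Gyg, the nearest of the 8 other glycogen genes, and 0.46 to 0.72 for the rest. The match includes the mutant libraries, whose low values chose Stbd1, so it is a description.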

How the data were processed

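Poly(A) RNA was sequenced from 5 control and 2 mutant left ventricles. The authors deposited raw counts for each gene symbol in each library, as whole numbers, and a table of their comparison with a log2 fold change, p-value and false discovery rate, whose test is not named per the file headers. Its fold changes were read as log2 because they differed little from those computed here (median absolute difference 0.0054 over 668 genes). The submitters' processing notes name the mm10 build and, as tools, edgeR 3.16.5, limma 3.30.13, R 3.3.2, TopHat2 2.1.1 and featureCounts. The library kit does not mark strand, per the labels' protocols.

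The quasi-likelihood test of edgeR 4.0.16 (R 4.3.3) was fitted to all 7 libraries with genotype as sole term, after filterByExpr (minimum count 10, minimum total 15) and TMM scaling (factors 0.988 to 1.01), with robust glmQLFit. A gene is called at a Benjamini-Hochberg adjusted p under 0.05 over the 14691 genes tested. The SE is the log2 fold change over the square root of F. Log2 CPM used a prior count of 2. Alternatives used DESeq2 1.42.0, limma-voom 3.58.1, other scaling and filtering, each library left out, a replicate block and Xist (over 10 CPM) as a covariate. The script was tested on simulated data. Exon lengths and positions came from GENCODE M21 (53 of 53 listed genes matched by symbol, of which Pgm1 and Pgm2 appear exchanged) and promoters from RefSeq (9 of 9). Figures used matplotlib 3.10.9.

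All 9 members are named whatever their values. Of the other pathway genes, those called and the 2 most abundant per kilobase in each list are named, with the 5 genes nearest to Stbd1. Gabarapl1, Gabarapl2, Map1lc3b, Pgm1, Prkaa2, Prkab2, Ppp1r3a, Gys2 and G6pc were named after their values were seen. The values of 1 listed pathway gene are not reported here. The members and lists were chosen with earlier results of these data known.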

Additional observations from a re-analysis of the deposited data

Results flagged for a closer look

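One control library stood apart for 1 of the 9 genes. Pygb was at 638 CPM in control replicate 3, and the other controls lay between 527 and 552 CPM. The gap was 0.77 of the range of the 5 controls, above the 0.71 that marks a value far from the rest. Chance marks about 1 in 20 such groups, and 9 genes were looked at. Without control replicate 3 the log2 fold change of Pygb was 0.31, not called (edgeR adjusted p 0.141).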

How the results depend on the processing

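Of the 9 members, Stbd1, chosen by its fall in these libraries, was the 1 called in each of the 15 alternatives except the DESeq2 test (2, with Gyg). Pathway genes called were 2 with DESeq2 size factors, 2 without the low-count filter, 5 by the DESeq2 test, 4 with the replicate block and 1 to 4 with each library left out. Over all genes, 785 were called by the DESeq2 test, 114 by limma-voom, 811 with the replicate block, 60 with Xist as a covariate, 52 without control replicate 5 and mutant replicate 2 together, and 12 to 275 with each library left out: 12 if mutant replicate 2 was dropped, 72 for control replicate 2 and 78 for control replicate 1. The main calls were 68 higher and 132 lower, and with mutant replicate 1 dropped they were 151 higher and 62 lower. The causes were not tested. Deviations of same-numbered libraries from their group means correlated at 0.0804 and 0.00954. With 2 mutant libraries, their deviations mirror each other, so these values cannot show whether the numbers 1 and 2 pair the libraries.

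Directions turned only in uncalled genes. Without control replicate 5 and mutant replicate 2 together the log2 fold change was 0.0057 for Gbe1, -0.022 for Pygl, 0.027 for Gsk3a, -0.097 for Epm2aip1 and 0.0076 for Map1lc3a. With each library left out it ran from -0.027 to 0.17 for Pygl, -0.0072 to 0.15 for Prkag1, -0.034 to 0.011 for Gsk3a, -0.063 to 0.54 for Ppp1r3b and -0.081 to 0.44 for Epm2aip1. With 2 mutant libraries, leaving out 1 assumes that the other varies like the controls.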
